A study of Mus musculus with 43 samples.

Results

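The genes described here are 10 transcripts of amacrine and horizontal cells, *Gad1*, *Gad2*, *Slc32a1*, *Slc6a9*, *Tfap2b*, *Chat*, *Th*, *Lhx1*, *Onecut1* and *Calb1*. They were picked by symbol from the 54532 genes of the read-count table, with earlier results of these data known. All 10 passed the filter on low counts that left 18173 genes. RNA was sequenced from retinas of C57BL/6J mice that were lasered at 9 weeks of age to induce choroidal neovascularization (CNV), so that control and treated mice alike carried the lesion. Male and female mice drank either water without additive or water with short-chain fatty acids (SCFA), namely sodium butyrate at 25 mM, sodium propionate at 40 mM and sodium acetate at 67.5 mM. Retinas were taken 3, 7 or 14 days after the laser (dpl), which gives 12 groups. The treatment ran from before the laser to the end, and the doses of butyrate and propionate are uncertain because the g/L values stated beside them do not match. Each of the 43 libraries pooled 2 retinas from different mice of 1 group, so that the whole retina was measured and not the lesion alone. The question put to these genes was whether SCFA, sex or time after the laser changed them.

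Amacrine cells are interneurons of the inner retina that shape the signals passing from bipolar to ganglion cells, and most of them release GABA or glycine. Horizontal cells sit in the outer retina, receive input from photoreceptors and feed inhibition back onto them. *Gad1* and *Gad2* encode both forms of glutamate decarboxylase, the enzyme that makes GABA, *Slc32a1* encodes the vesicular transporter that loads GABA and glycine into synaptic vesicles, and *Slc6a9* encodes the glycine transporter GlyT1. *Tfap2b* is a transcription factor of amacrine and horizontal cells, *Chat* makes acetylcholine in starburst amacrine cells and *Th* catalyses the first step of dopamine synthesis in dopaminergic amacrine cells. *Lhx1* and *Onecut1* are transcription factors of horizontal cells, and *Calb1* encodes calbindin, a calcium-binding protein of horizontal cells and of some amacrine cells. A whole-retina library cannot separate fewer cells of a type from less RNA per cell, and this holds for every value below.

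Sequence upstream of 3 of these genes is shown because *Gad1* and *Gad2* encode enzymes of the same reaction, of which *Gad2* and not *Gad1* passed the test of SCFA in male retina at 7 dpl, where *Tfap2b* was called as well. Each stretch is read 5′ to 3′ from RefSeq's promoter table on GRCm38.p6, on the plus strand, and stops where the first exon of GENCODE M21 begins or at 250 bases. Capitals mark matches to an AP-2 family motif, GCCNNNGGC. The *Gad1* stretch lies at chr2:70561879-70562041, within the span that GENCODE M21 gives the gene but outside its exons, the *Gad2* stretch at chr2:22622077-22622204, just before the gene, and the *Tfap2b* stretch at chr1:19211804-19212053, within the gene's span and outside its exons.
*Gad1*: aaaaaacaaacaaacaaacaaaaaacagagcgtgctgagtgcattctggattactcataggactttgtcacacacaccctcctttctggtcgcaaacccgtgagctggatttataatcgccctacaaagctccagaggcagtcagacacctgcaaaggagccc
*Gad2*: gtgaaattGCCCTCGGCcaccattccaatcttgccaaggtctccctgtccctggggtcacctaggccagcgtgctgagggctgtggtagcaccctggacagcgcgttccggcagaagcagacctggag
*Tfap2b*: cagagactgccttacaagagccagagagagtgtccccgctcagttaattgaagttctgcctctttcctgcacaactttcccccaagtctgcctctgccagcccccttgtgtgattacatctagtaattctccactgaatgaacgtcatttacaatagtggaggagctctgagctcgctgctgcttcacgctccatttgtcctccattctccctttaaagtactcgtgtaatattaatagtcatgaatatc

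Windows of 250 bases before the RefSeq start were at hand for 9 of the 10 genes, with 3 starts for *Slc6a9*, and no window was at hand for *Calb1*. GCCNNNGGC, which reads the same on both strands, was found in the *Gad2* window alone among the 11 windows of these genes and in 13.7% of all 32851 windows. It occurs at 2 places there, the second of them behind the stretch printed above. The cyclic AMP response element TGACGTCA was in the *Th* window and in 1.55% of all windows, the E-box CAGCTG in the *Chat* window and in 13.0% of all, and the Onecut motif ATCAAT, searched on both strands, in 1 *Slc6a9* window and in 6.72% of all. TAATTA, a homeodomain motif, was in none of the 11 and in 4.84% of all windows. None of the 5 motifs contains another, and a match of this kind describes letters only.

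Libraries held from 14826957 to 21507527 counted reads, with a median of 17683615. The library of SCFA-treated females at 3 dpl, replicate 2, held lens transcripts at a summed 162898 CPM (reads of a gene relative to all reads of its library, on the usual CPM scale), against at most 653 in the others, and was left out, so that 42 libraries were fitted. One library labelled female, the 7 dpl control replicate 2, held 308 counts of the Y-linked *Ddx3y* and 1871 of *Xist*, whereas the other female libraries held no *Ddx3y* count. The table lists 31 libraries first and 12 after them, and these runs of columns differed in 53.3% of genes (edgeR's quasi-likelihood test, adjusted p under 0.1). The run was therefore a term of every fit, although no source names it as a batch. As in rod-dominated retina, 6 rod markers summed to between 45149 and 94769 CPM in the fitted libraries. Values of single genes are CPM after TMM scaling unless stated otherwise, whereas sums over markers are CPM of all counts without that scaling. A gene was called at an adjusted p under 0.1, the threshold of the study, over all genes tested. Log2 fold changes are followed by their standard error.

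On the mm10 build the GABA and glycine genes lie at chr2:70553072-70602014 (*Gad1*), chr2:22622205-22693874 (*Gad2*), chr2:158610767-158615748 (*Slc32a1*) and chr4:117834506-117875198 (*Slc6a9*), all on the plus strand. The transmitter genes of rarer amacrine cells lie on the minus strand, *Chat* at chr14:32408203-32465989 and *Th* at chr7:142892752-142931128. The transcription factors are at chr1:19208914-19238576 (*Tfap2b*, plus), chr11:84518284-84525535 (*Lhx1*, minus) and chr9:74861921-74891781 (*Onecut1*, plus), and *Calb1* is at chr4:15881264-15908064 (plus). All 10 are annotated as protein-coding, and reads were counted per gene.

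Per kilobase of exon, *Slc32a1* was the most abundant of these genes, with a median of 33.7 CPM per kb over 42 libraries (range 20.4 to 49.2). *Gad1* followed at 26.9 (16.4 to 36.4) and was below *Slc32a1* in 39 of the 42 libraries. *Calb1* had 15.2, *Tfap2b* 12.5, *Slc6a9* 8.37 and *Gad2* 6.30 CPM per kb. The order of these neighbours was less firm, since *Calb1* exceeded *Tfap2b* in 35 libraries, *Tfap2b* exceeded *Slc6a9* in 33 and *Slc6a9* exceeded *Gad2* in 33.

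The markers of rarer cells were lower. *Th* had a median of 1.65 CPM per kb, *Chat* 1.39 and *Lhx1* 1.14, and their order changed between libraries, with *Th* above *Chat* in 31 and *Chat* above *Lhx1* in 27 of 42. *Onecut1* was the lowest at 0.0944 CPM per kb, with between 0 and 30 reads per library and 3 reads or fewer in 12 libraries, so its values carry a large counting error. Each of the other 9 genes had at least 32 reads in every fitted library. *Slc18a3*, the vesicular acetylcholine transporter that lies inside the *Chat* locus on the same strand, had at least 2.74 CPM in every library. *Slc6a3*, the dopamine transporter, did not pass the filter and reached at most 0.247 CPM, while *Ddc*, which turns L-DOPA into dopamine, had between 0.134 and 1.83 CPM.

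**Figure D1:**
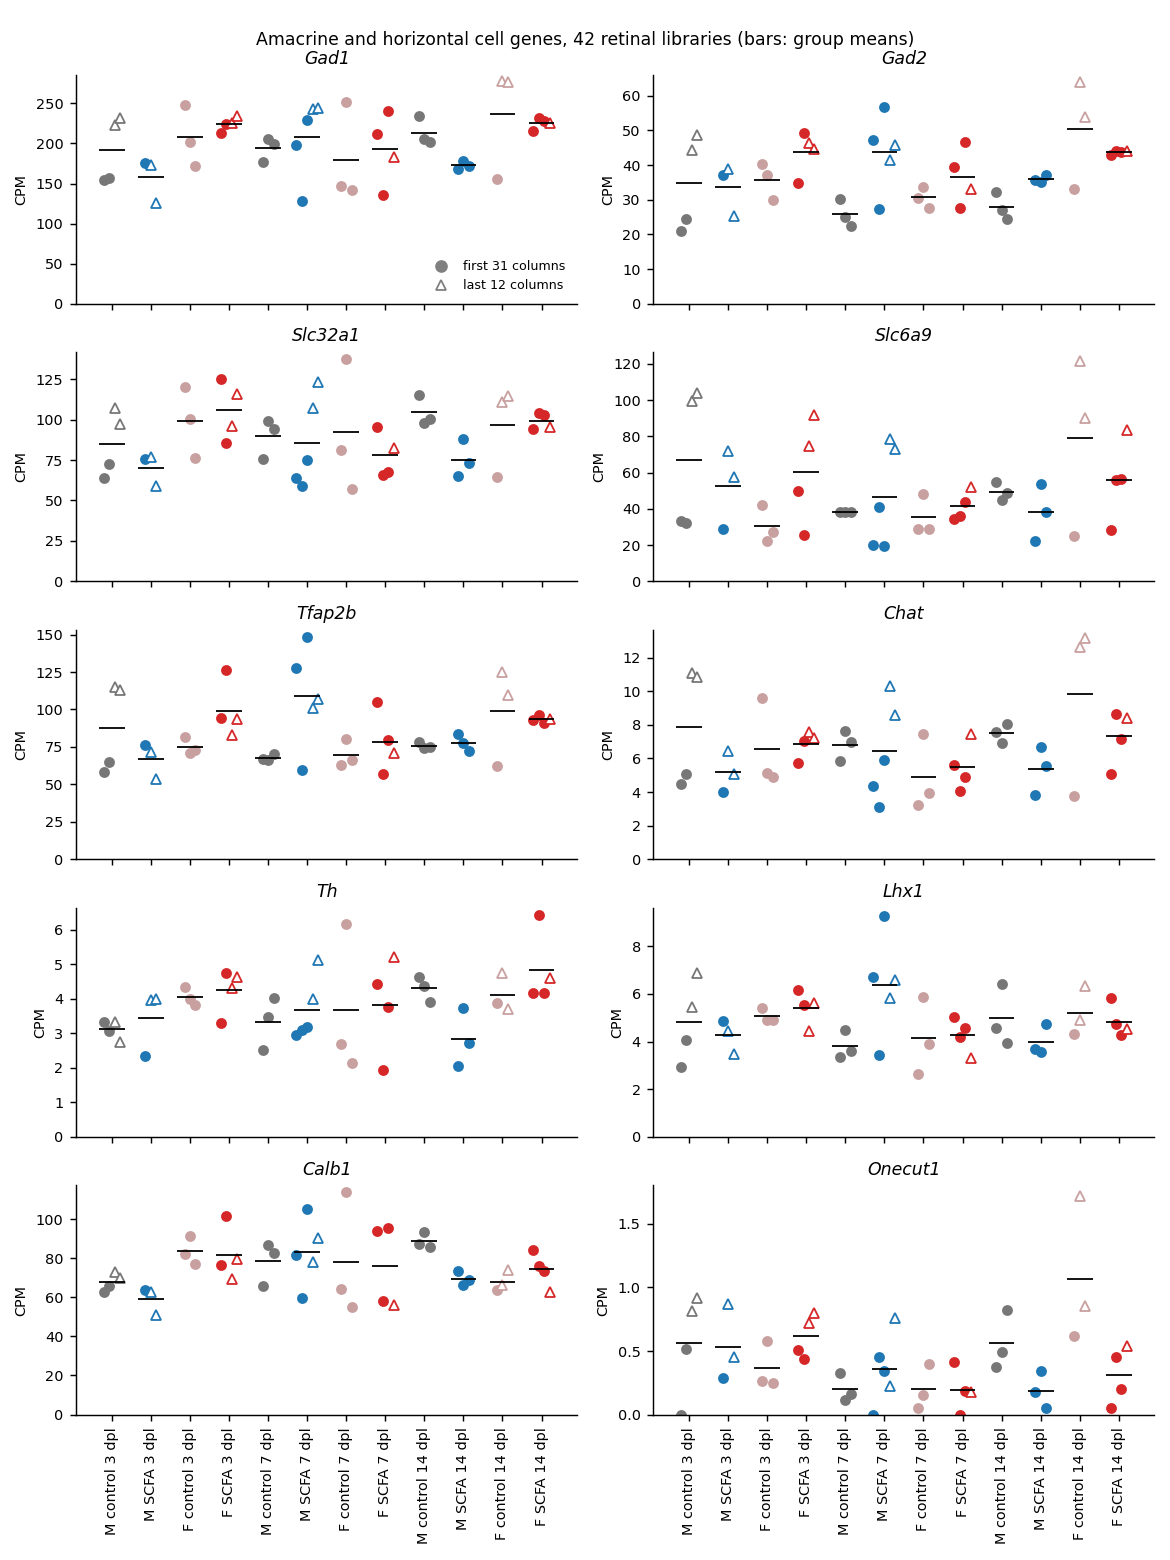
CPM of each gene (vertical axes, from 0) in 42 libraries by sex, treatment and dpl, with filled circles for the first and open triangles for the last run of columns and a bar at each group mean. The triangles of Slc6a9 lie above the circles in each of the 7 groups that hold both, and the spread inside groups is wide for most genes.

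The run of columns moved 5 of the 10 genes, all of them upward in the last run, beside 53.3% of all genes tested and 27.4% called upward. *Slc6a9* differed most, with a median of 37.2 CPM (19.4 to 56.7) in 30 libraries of the first run and 80.9 CPM (52.3 to 121) in 12 of the last (log2 difference 1.28 ± 0.16, edgeR adjusted p = 5.74e-08). *Chat* was higher by 0.81 ± 0.15 (adjusted p = 3.64e-05), *Onecut1* by 0.98 ± 0.37 (0.0293), *Slc32a1* by 0.34 ± 0.12 (0.0155) and *Gad1* by 0.23 ± 0.10 (0.0672). *Gad2* (0.23 ± 0.12), *Th* (0.29 ± 0.15), *Tfap2b* (0.11 ± 0.12), *Lhx1* (0.02 ± 0.14) and *Calb1* (-0.12 ± 0.10) did not pass the threshold.

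Inside single groups the same held for *Slc6a9*. In control males at 3 dpl it had 33.4 and 32.1 CPM in the first run and 99.3 and 104 CPM in the last, and in control females at 14 dpl 25.1 CPM in the first run and 121 and 90.4 CPM in the last. Libraries of the last run were above all those of the first in 7 of 7 groups for *Slc6a9*, in 6 for *Chat* and in 5 for *Onecut1*, and 4.08% of all genes were so in every group. *Slc6a9* overlaps the genes *Ccdc24* and *B4galt2* on the other strand, and the sources used here do not state whether the counting used strand. These neighbours, examined after their values were seen, differed by -0.48 ± 0.12 and 0.30 ± 0.06 between the runs (adjusted p 0.00109 and 8.58e-05), and their part in the *Slc6a9* difference was not tested. Mitochondrial mRNA made up 4.71% to 14.8% of the counts in the first run and 2.50% to 4.57% in the last, and its part in these differences was not tested.

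**Figure D2:**
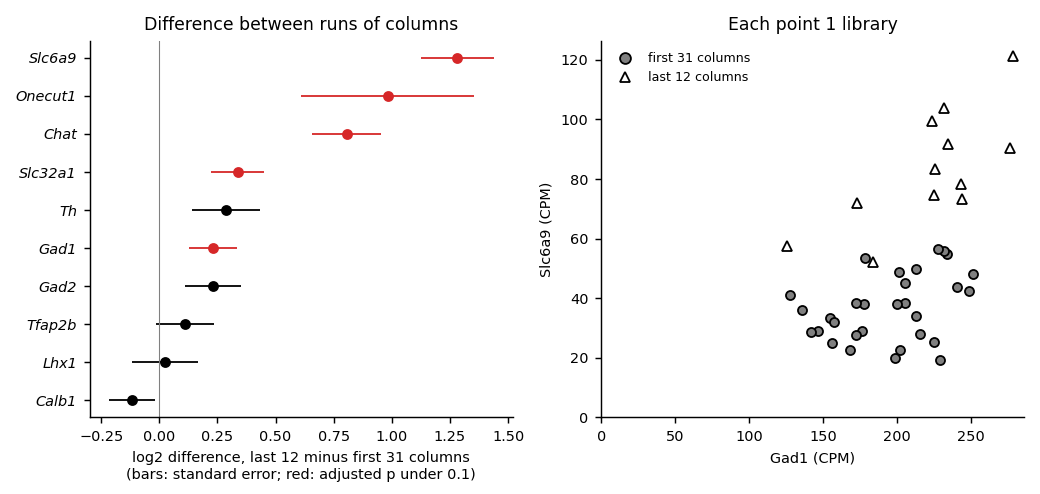
Left, log2 difference of each gene between the last and the first run of columns (horizontal axis) with its standard error, in red where the adjusted p was under 0.1. Right, Slc6a9 against Gad1 (both CPM) in 42 libraries, where the 12 libraries of the last run (triangles) have 52.3 CPM of Slc6a9 or more at like levels of Gad1.

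Related genes differed between the runs as well, beside 53.3% of all 18173 genes tested, 4983 of them higher in the last run and 4710 lower. Of the 8 horizontal cell genes, 4 were higher in the last run and none lower, led by *Gja10*, a connexin of horizontal cells (1.80 ± 0.39, adjusted p = 0.000258), and followed by *Onecut3* (0.70 ± 0.18) and *Prox1* (0.30 ± 0.10) beside *Onecut1*. Of 20 genes for GABA and glycine receptors and inhibitory synapses 11 were higher and 2 lower, with *Gabrb2* at 1.599 ± 0.35, *Glra1* at 0.86 ± 0.30, *Gabbr2* at 0.69 ± 0.11 and *Glra4* at 0.64 ± 0.25. Of the 18 general amacrine genes 5 were higher and 6 lower, with *Nfia* at -0.76 ± 0.12 and *Nos1*, the neuronal nitric oxide synthase, at 0.75 ± 0.13 as the extremes. Of the 7 starburst genes, *Slc18a3* (0.75 ± 0.15) was higher beside *Chat*, and *Sox2* (-0.72 ± 0.12) and 1 more were lower. Of the dopaminergic genes 2 of 5 were lower, and of 8 neuropeptide genes *Sst* (-0.73 ± 0.14) and 2 more were lower and *Tac1* (0.40 ± 0.11) higher. The last run was lower in 4 of the 5 pigment epithelium markers and in 5 of the 6 Müller glia markers, of which 1 was higher. Of the 6 oligodendrocyte markers 3 were lower, of the 5 cone markers 2 and of the 6 microglia markers 1. Higher were 3 of 4 endothelial, 2 of 6 rod, 3 of 6 bipolar and 3 of 7 ganglion cell markers. In the bipolar and the ganglion cell list 1 marker each was lower, and no lens marker was called.

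In male retina at 7 dpl *Gad2*, *Tfap2b* and *Lhx1* rose with SCFA, 3 of the 10 genes, beside 23.8% of all genes called and 13.5% called upward. *Gad2* had 30.1, 24.9 and 22.5 CPM in control replicates 1 to 3 and 47.3, 27.3, 56.7, 41.6 and 45.8 CPM in SCFA replicates 1 to 5 (log2 fold change 0.67 ± 0.22, edgeR adjusted p = 0.0305). *Tfap2b* had 66.7, 65.9 and 70.3 CPM in the controls and 128, 59.5, 148, 101 and 107 CPM with SCFA (0.64 ± 0.23, adjusted p = 0.0450). *Lhx1* had 3.35, 4.50 and 3.59 CPM in the controls and 6.72, 3.45, 9.28, 5.85 and 6.59 CPM with SCFA (0.72 ± 0.26, adjusted p = 0.0526). The groups overlapped in all 10 genes and did not overlap in 17.8% of all genes. In each of *Gad2*, *Tfap2b* and *Lhx1*, SCFA replicate 2 lay within or below the controls and the other 4 SCFA libraries lay above all 3 controls. All 3 controls and SCFA replicates 1 to 3 are of the first run of columns, and SCFA replicates 4 and 5 are of the last. These CPM values are not adjusted for the run, whereas the fold changes are.

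Replicates 1 and 3, the highest for *Gad2*, *Tfap2b* and *Lhx1*, stood apart in other respects. Mitochondrial mRNA was 13.8% and 14.8% of their counts, against 7.65%, 3.88% and 3.74% in SCFA replicates 2, 4 and 5 and 5.59% to 6.14% in the controls. The 6 rod markers summed to 54418 and 45149 CPM in them, against 78905 to 94769 CPM in the other SCFA libraries and 73436 to 77510 CPM in the controls, and the 6 Müller glia markers to 8140 and 9645 CPM, against 4960 to 6053 and 4578 to 5760 CPM. None of these markers was at 0. Without both libraries, a choice made after their values were seen, none of the 10 genes was called by edgeR, none had an unadjusted p under 0.05, and 4.07% of all genes were called. The fold changes were then 0.32 for *Gad2* (adjusted p = 0.521), 0.21 for *Tfap2b* (0.695) and 0.37 for *Lhx1* (0.553). Single libraries mattered as well. None of the 10 genes was called without SCFA replicate 3 or without control replicate 3, 1 was called without control replicate 1 (*Gad2*) or 2 (*Lhx1*), and 2 were called without SCFA replicate 1 (*Gad2* and *Lhx1*).

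**Figure D3:**
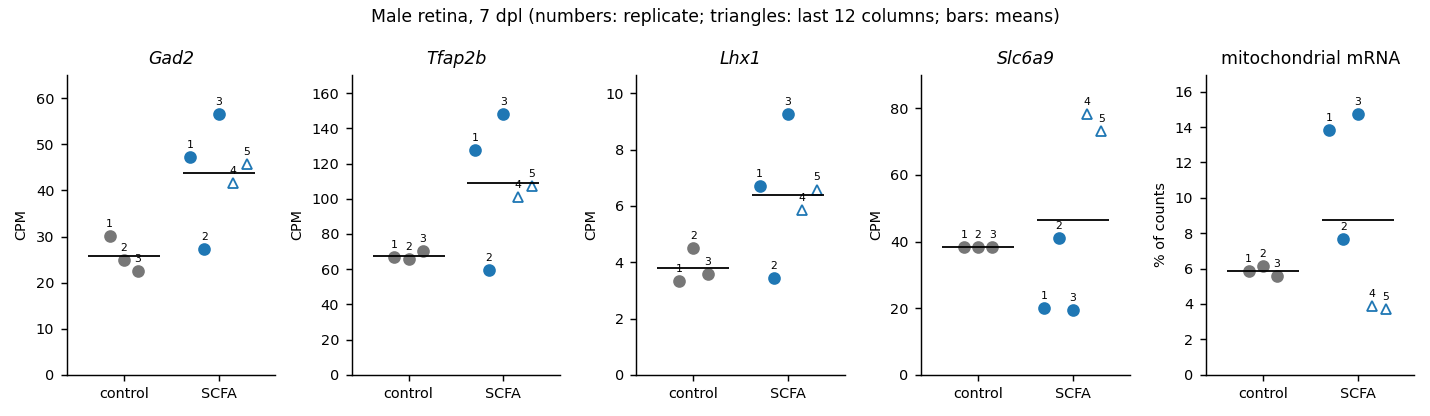
CPM of Gad2, Tfap2b, Lhx1 and Slc6a9 and the share of mitochondrial mRNA (percent of counts) in male libraries at 7 dpl, with replicate numbers and a bar at each mean. SCFA replicates 1 and 3 are the highest for Gad2, Tfap2b, Lhx1 and mitochondrial mRNA and the lowest for Slc6a9, at 20.1 and 19.4 CPM.

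The other GABA and glycine genes were not called. *Gad1* had 177, 205 and 200 CPM in the controls and 198, 128, 229, 243 and 244 CPM with SCFA, with overlapping groups and a fitted difference near 0 (SE 0.19). *Slc6a9* had 38.2, 38.3 and 38.2 CPM in the controls. With SCFA it had 20.1, 41.0 and 19.4 CPM in the first run and 78.4 and 73.3 CPM in the last, which gave -0.41 ± 0.28 with the run in the fit (adjusted p = 0.328). The 3 controls are all of the first run. In the fit of the libraries that the study lists (SCFA replicates 2, 4 and 5, with no term for the run), *Slc6a9* was called in the opposite direction (0.75, adjusted p = 0.0392), together with *Gad2* (0.57, 0.0677) and beside 19.1% of all genes. *Slc32a1* (-0.23 ± 0.21), *Chat* (-0.50 ± 0.27), *Calb1* (0.13 ± 0.18), *Th* (SE 0.27, near 0) and *Onecut1* (0.36 ± 0.79) did not pass the threshold.

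Among related genes in male retina at 7 dpl, 7 of the 18 general amacrine genes were higher with SCFA and 1 was lower, beside 23.8% of all genes called and 13.5% called upward. The largest were the transcription factors *Tcf4* (1.45 ± 0.24, adjusted p = 0.000221), *Nfia* (1.18 ± 0.22), *Nfib* (0.80 ± 0.17) and *Ebf1* (0.77 ± 0.19), and the lower one, named after its value was seen, was *Calb2*, which encodes calretinin (-0.57 ± 0.22). Of the 7 starburst genes 4 rose and 1 fell, with *Sox2* at 1.05 ± 0.22, *Megf10* at 0.77 ± 0.20, the choline transporter *Slc5a7* at 0.70 ± 0.28 and *Slc18a3* at -0.73 ± 0.28. *Sox2* and *Glul*, the glutamine synthetase, are also expressed by Müller glia, of whose 6 markers 3 rose (*Glul* 1.02 ± 0.19, *Rlbp1* 0.89 ± 0.21 and *Aqp4* 0.83 ± 0.20). Whole-retina RNA does not show in which cells a listed gene differed, here or in the other comparisons. The part of Müller glia in the differences of *Tcf4*, *Nfia*, *Nfib* and *Ebf1* was not tested. Of the 5 dopaminergic genes tested 2 rose, *Slc18a2*, the vesicular monoamine transporter (0.80 ± 0.18), and *Nr4a2* (0.60 ± 0.23), while *Ddc* had -0.42 ± 0.48. Of the 8 horizontal cell genes 2 rose, *Onecut2* (0.82 ± 0.24) and *Lhx1*, and of 8 neuropeptide genes *Gal* (-1.24 ± 0.46) and *Tac1* (-0.49 ± 0.21) fell. Of the 20 receptor and synapse genes 7 rose, among them *Gabra2* (1.03 ± 0.22) and *Glrb* (0.80 ± 0.20).

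The median log2 fold changes were 0.32 for the general amacrine, 0.48 for the starburst, 0.45 for the dopaminergic, 0.22 for the horizontal, 0.12 for the receptor and -0.20 for the neuropeptide genes. They were 0.07 for the 10 genes, 0.48 for the Müller glia markers and -0.03 over all genes tested. The lists were not compared by a test. Without SCFA replicates 1 and 3, *Nfia* and *Tcf4* of the general amacrine genes and *Slc18a2* of the dopaminergic genes were still called higher by edgeR, and no starburst, horizontal, neuropeptide or receptor gene was called, although 3 starburst and 4 receptor genes had an unadjusted p under 0.05. Of the Müller glia markers *Glul* was still called.

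In male retina at 14 dpl none of the 10 genes was called in the fit of all libraries, where 9.68% of all genes were, although 2 had an unadjusted p under 0.05 (*Slc32a1* and *Th*) and DESeq2 also called none. All 6 libraries are of the first run. In 7 of the 10 genes the SCFA and the control libraries did not overlap, as in 33.5% of all genes tested. *Gad1* had 234, 205 and 201 CPM in the controls and 168, 178 and 172 CPM with SCFA, a log2 fold change of -0.30 ± 0.21 (adjusted p = 0.394). *Gad2* had 32.1, 27.1 and 24.5 CPM in the controls and 35.6, 35.2 and 37.2 CPM with SCFA (0.37 ± 0.24, adjusted p = 0.359). Neither passed the test, and the difference between the decarboxylases was not tested.

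*Slc32a1* had 115, 97.9 and 100.4 CPM in the controls and 64.9, 87.8 and 73.0 CPM with SCFA (-0.47 ± 0.23, adjusted p = 0.212). *Calb1* had 87.1, 93.5 and 85.5 CPM against 73.4, 66.1 and 68.7 CPM (-0.35 ± 0.20, adjusted p = 0.286). *Th* had 4.63, 4.39 and 3.92 CPM against 2.04, 3.74 and 2.72 CPM (-0.60 ± 0.30, adjusted p = 0.221). *Chat* (-0.49 ± 0.30) and *Onecut1* (-1.56 ± 0.82, with few reads) were also lower in each SCFA library than in each control, whereas the groups overlapped in *Slc6a9* (-0.38 ± 0.30), *Lhx1* (-0.31 ± 0.29) and *Tfap2b* (0.03 ± 0.24). When only these 6 libraries were fitted, which takes the spread from them alone, *Slc32a1* (adjusted p = 0.0233), *Calb1* (0.0262) and *Gad1* (0.0550) were called lower and *Gad2* (0.0497) higher, beside 24.6% of all genes. SCFA replicate 1 was the lowest of its group for *Gad1*, *Slc32a1*, *Chat*, *Th* and *Slc6a9*, 5 of the 10 genes, beside 37.6% of all genes. It was the highest for *Tfap2b* and *Calb1*, beside 38.2% of all genes. This library had the highest share of mitochondrial mRNA of its group, 7.91% against 4.86% and 6.51%. In the controls this share was 4.71% to 5.43%, and its part in these differences was not tested.

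**Figure D4:**
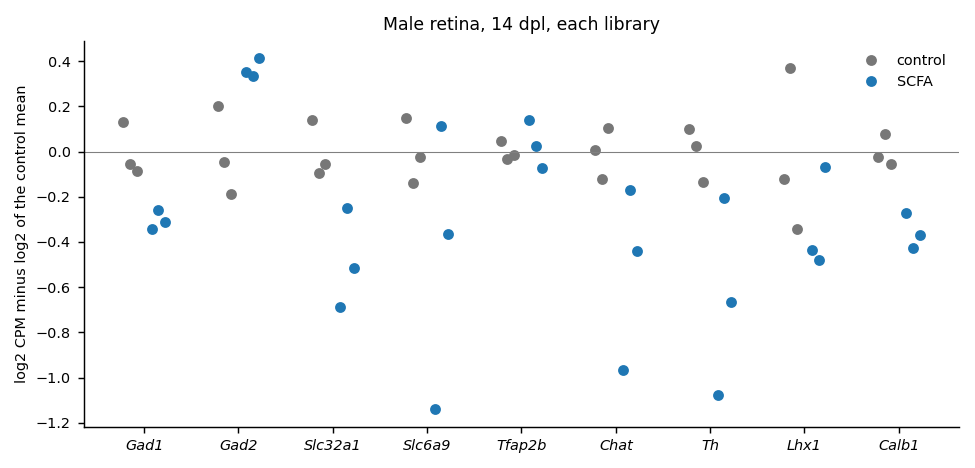
Log2 CPM minus the log2 of the control mean (vertical axis) for 9 genes in 3 control and 3 SCFA male libraries at 14 dpl, Onecut1 left out for its few reads. Gad2 lies above the controls in all SCFA libraries, at 35.2 to 37.2 CPM, while Gad1, Slc32a1, Chat, Th and Calb1 lie below all controls.

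Among related genes at this stage, the monoamine transporter *Slc18a2* rose (0.71 ± 0.20, adjusted p = 0.0454), 1 of 5 dopaminergic genes tested. Of all 18173 genes tested 9.68% were called here, 824 higher and 936 lower. Of the general amacrine genes *Slc17a8*, the vesicular glutamate transporter VGLUT3, rose (0.84 ± 0.29) and *Calb2* (-0.82 ± 0.24) and *Nos1* (-0.78 ± 0.27) fell, and of the peptides *Tac1* fell (-0.82 ± 0.23). None of the horizontal, starburst or receptor genes was called. Of the ganglion cell markers 3 of 7 were called lower, of the microglia markers 2 of 6 and of the pigment epithelium markers 1 of 5. No rod, cone, bipolar, Müller glia, lens, oligodendrocyte or endothelial marker was called. The pigment epithelium markers had a median log2 fold change of -1.07, all 5 were below 0 and 4 had an unadjusted p under 0.05. Their summed level was 385, 189 and 295 CPM in the controls and 156, 88.1 and 152 CPM with SCFA, without overlap. The ganglion cell sums, 1141, 1254 and 1038 CPM against 748, 969 and 781 CPM with SCFA, did not overlap either. Nor did the microglia sums, 51.0, 52.1 and 53.4 CPM against 24.1, 41.3 and 32.6 CPM with SCFA. The sums of the other marker lists overlapped. The part of these markers in the differences above was not tested.

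At 3 dpl in males none of the 10 genes was called, beside 0.0275% of all genes tested. *Chat* had 4.50, 5.07, 11.1 and 10.8 CPM in control replicates 1 to 4, the last pair from the last run, and 4.01, 6.43 and 5.05 CPM in SCFA replicates 1 to 3, the last pair again from the last run. With the run in the fit it was lower with SCFA by an estimated -0.66 ± 0.28 (edgeR adjusted p = 0.343), and it was the only gene of the 10 under 0.05 before adjustment. DESeq2 called none either, and groups overlapped in all 10 genes, unlike in 8.55% of all genes.

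In females, none of the 10 genes was called with SCFA at 3, 7 or 14 dpl in edgeR's or DESeq2's test. None had an unadjusted p under 0.05 in edgeR's test, and *Onecut1* at 14 dpl did in DESeq2's. Of all genes edgeR called 0.418%, 0.941% and 0% at these times, and at 14 dpl 579 genes had an unadjusted p under 0.05 and DESeq2 called 1. At 3 dpl *Tfap2b* had 81.6, 71.0 and 72.7 CPM in the controls and 94.2, 127, 82.9 and 93.4 CPM in SCFA replicates 1, 3, 4 and 5. Its groups did not overlap, as in 9.53% of all genes, and it differed by 0.35 ± 0.23 (adjusted p = 0.498). At 7 dpl, where groups overlapped in all 10 genes and did not in 7.11% of all genes, the largest difference was that of *Slc32a1* (-0.32 ± 0.21, adjusted p = 0.454), with 81.4, 138 and 57.2 CPM in the controls and 95.5, 66.0, 67.6 and 82.6 CPM with SCFA.

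The control replicate 2 of females at 7 dpl, the library that held Y-linked transcripts, was the highest of its 3 in 9 of the 10 genes, as it was in 41.5% of all genes. It had 252 CPM of *Gad1* against 146 and 142, 114 CPM of *Calb1* against 64.3 and 55.2, and 6.18 CPM of *Th* against 2.70 and 2.14. Left out, it changed no call of the 10 genes at 7 dpl in the fit of all libraries. In the fit of the libraries that the study lists for control males against control females at 7 dpl (male replicates 2 and 3, female 1 and 3, fewer male libraries than its methods state), which leaves it out, *Gad1* (0.49, adjusted p = 0.0461), *Calb1* (0.50, 0.0523), *Slc6a9* (0.40, 0.0958) and *Chat* (1.03, 0.0581) were called higher in males, beside 6.59% of all genes, whereas none was called in the fit of all libraries, where 0.0495% of all genes were.

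At 14 dpl in females both groups held libraries of both runs of columns. Control replicates 2 and 3 belong to the last run and control replicate 1 to the first, while SCFA replicates 1 to 3 belong to the first and replicate 4 to the last. *Slc6a9* had 25.1, 121 and 90.4 CPM in the controls and 28.2, 55.9, 56.7 and 83.5 CPM with SCFA. *Chat* had 3.77, 12.6 and 13.2 CPM in the controls and 5.07, 8.64, 7.19 and 8.42 CPM with SCFA. Within the first run both genes were higher in all 3 SCFA libraries than in the control, and within the last run both were lower in the SCFA library. With the run in the fit, the differences were 0.22 ± 0.30 and 0.04 ± 0.28. Of the 10 genes *Onecut1* alone had groups that did not overlap, as in 3.98% of all genes, with 0.617, 1.72 and 0.854 CPM in the controls and 0.0502, 0.452, 0.198 and 0.536 CPM with SCFA (-1.35 ± 0.68). In the libraries that the study lists, control replicates 2 and 3 against SCFA replicates 1 to 3, run and treatment cannot be told apart, and *Slc6a9* (-1.15, adjusted p = 0.0588), *Chat* (-0.86, 0.0613), *Gad2* (-0.41, 0.0747) and *Onecut1* (-2.38, 0.0708) were called lower, beside 17.7% of all genes.

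**Figure D5:**
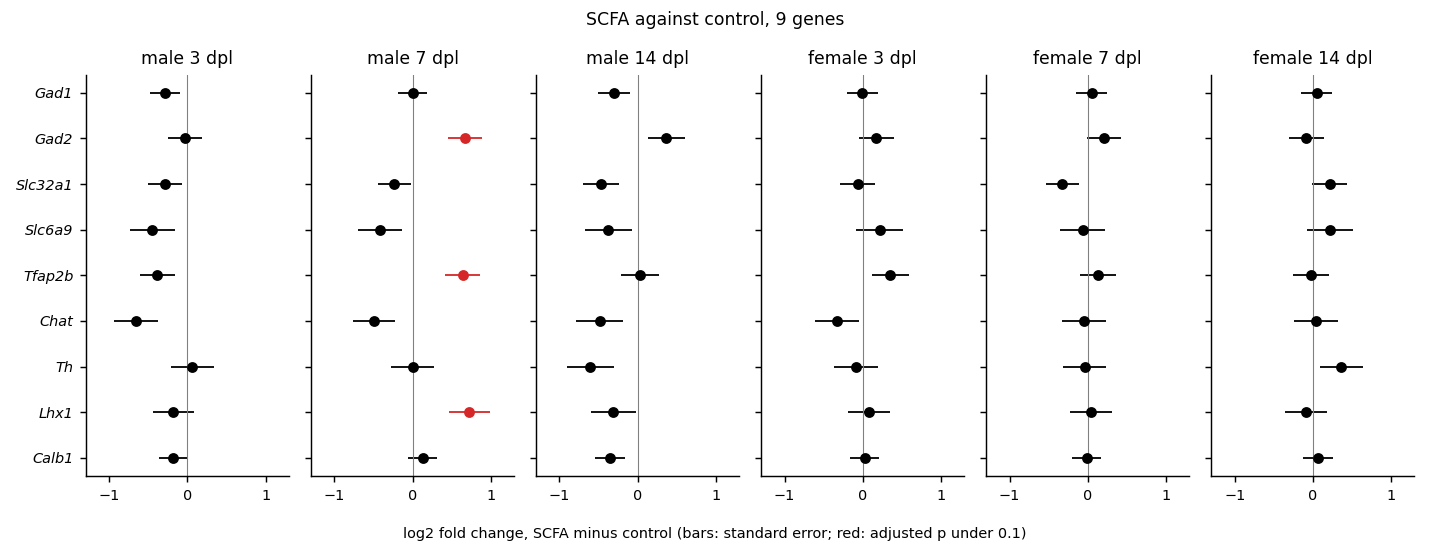
Log2 fold change of 9 genes with SCFA (horizontal axes) with the standard error, in males and females at 3, 7 and 14 dpl, red where the adjusted p was under 0.1. Red points appear in male retina at 7 dpl only, for Gad2 (0.67), Tfap2b (0.64) and Lhx1 (0.72), and the female values lie between -0.33 (Chat at 3 dpl) and 0.37 (Th at 14 dpl).

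Averaged over both sexes and the 3 times, *Chat* was lower with SCFA (-0.33 ± 0.11, adjusted p = 0.0266), as was *Slc32a1* (-0.20 ± 0.09, 0.0940), and *Gad2* was higher (0.22 ± 0.09, 0.0675). These are 3 of the 10 genes, beside 36.7% of all genes. The call of *Slc32a1* was lost with DESeq2 (adjusted p = 0.116), and those of *Chat* and *Slc32a1* without a term for the run (0.319 and 0.294). *Gad1* (-0.08 ± 0.08), *Slc6a9* (-0.15 ± 0.12), *Tfap2b* (0.13 ± 0.09), *Calb1* (-0.05 ± 0.08), *Th* (-0.05 ± 0.12), *Lhx1* (0.05 ± 0.11) and *Onecut1* (-0.46 ± 0.32) were not called. *Slc18a3*, which shares the *Chat* locus, fell too (-0.43 ± 0.12, adjusted p = 0.00512), whereas *Slc5a7*, which takes up choline in the same cells, had 0.13 ± 0.12 and was not called. Of the 7 starburst genes 3 rose and 3 fell. In the first run of columns alone the differences of *Chat* and *Slc32a1* were -0.08 (adjusted p = 0.727) and -0.05 (0.806), while *Gad2* (0.46, adjusted p = 0.00134) and *Tfap2b* (0.41, 0.00554) were called there, beside 30.1% of all genes. Without male SCFA replicates 1 and 3 at 7 dpl *Gad2* was no longer called (0.16, adjusted p = 0.188), and *Chat* was the only gene of the 10 called, beside 32.3% of all genes.

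Of all 18173 genes tested 36.7% were called in this average, 3209 higher and 3452 lower. Of the 5 dopaminergic genes tested *Slc18a2* alone was called in it (0.50 ± 0.08, adjusted p = 1.32e-05), and *Ddc* had -0.08 ± 0.20. Among the general amacrine genes 8 rose and 2 fell, with *Calb2* (-0.50 ± 0.09), *Tcf4* (0.46 ± 0.10), *Nos1* (-0.44 ± 0.10) and *Nfia* (0.38 ± 0.09) at the ends. Of the receptor and synapse genes 4 rose and 3 fell, with *Glra4* at -0.64 ± 0.19 and *Glrb* at 0.29 ± 0.08, and of the horizontal cell genes *Prox1* alone was called (0.19 ± 0.07). Among the neuropeptides *Gal* (-0.62 ± 0.20) and *Tac1* (-0.31 ± 0.09) fell and *Vip* (0.21 ± 0.09) rose.

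The response to SCFA was not shown to differ between the sexes for any of the 10 genes. The interaction, the male minus the female response, gave no call among them at 3, 7 or 14 dpl by edgeR or DESeq2, beside 0%, 0.0165% and 0% of all genes. At 3 and 14 dpl 1496 and 2034 genes had an unadjusted p under 0.05, and DESeq2 called 3 and 0 genes. Unadjusted p values under 0.05 were those of *Tfap2b* at 3 dpl (-0.74 ± 0.33) and of *Th* (-0.97 ± 0.41) and *Slc32a1* (-0.69 ± 0.32) at 14 dpl in edgeR's test, with adjusted p values of 0.564, 0.413 and 0.427. For *Gad2*, *Tfap2b* and *Lhx1* at 7 dpl, called in males only, the interaction was 0.46 ± 0.30, 0.51 ± 0.32 and 0.68 ± 0.37 (edgeR adjusted p 0.688, 0.669 and 0.628).

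Between control males and control females no gene of the 10 was called at 3, 7 or 14 dpl, beside 0.0495%, 0.0495% and 6.28% of all genes. The count at an unadjusted p under 0.05 was 0, 0 and 1. That gene was *Gad2* at 14 dpl, with 32.1, 27.1 and 24.5 CPM in males and 33.2 CPM in the first run and 64.0 and 54.0 CPM in the last in females (male minus female -0.68 ± 0.25, edgeR adjusted p = 0.122). DESeq2 called it, beside 15.5% of all genes in its test. All 3 males are of the first run, where a single female library stands beside them at 33.2 CPM.

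None of the 10 genes was called over time after the laser. Between 3 and 7 dpl and between 7 and 14 dpl, each averaged over the sexes, neither the control nor the SCFA libraries gave a call among them by edgeR or DESeq2, beside 0% of all genes in 3 of these 4 comparisons and 0.319% between 7 and 14 dpl with SCFA. In the former 3 comparisons 1293 (controls, 3 to 7 dpl), 1800 (controls, 7 to 14 dpl) and 955 genes (SCFA, 3 to 7 dpl) had an unadjusted p under 0.05, and DESeq2 called 14, 34 and 0 genes. Unadjusted p values under 0.05 were those of *Onecut1* in controls between 7 and 14 dpl (1.58 ± 0.58, edgeR adjusted p = 0.407), on few reads, and of *Slc6a9* in SCFA libraries between 7 and 14 dpl (0.39 ± 0.19, adjusted p = 0.330).

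Over the 12 groups the mean level of *Gad1* ran from 158 ± 28.4 CPM (SD, n = 3) in SCFA males at 3 dpl to 237 ± 69.9 CPM (n = 3) in control females at 14 dpl, and that of *Calb1* from 59.3 ± 7.10 CPM (n = 3) in SCFA males at 3 dpl to 88.7 ± 4.23 CPM (n = 3) in control males at 14 dpl. The lowest mean of *Th* was 2.83 ± 0.855 CPM (n = 3) in SCFA males at 14 dpl and the highest 4.84 ± 1.07 CPM (n = 4) in SCFA females at 14 dpl. *Gad2* was lowest in control males at 7 dpl (25.8 ± 3.86 CPM, n = 3) and highest in control females at 14 dpl (50.4 ± 15.7 CPM, n = 3). Neighbours in the orders of these 4 genes differed by less than the larger of their SDs, apart from the lowest pair of *Calb1*, SCFA and control males at 3 dpl. These group means carry no adjustment for the run of columns, and the groups hold unequal shares of both runs. In control females at 14 dpl, replicate 1, from the first run, had 156 CPM of *Gad1* and 33.2 CPM of *Gad2*. Replicates 2 and 3, from the last run, had 278 and 276 CPM of *Gad1* and 64.0 and 54.0 CPM of *Gad2*. SCFA-treated females at 14 dpl were the most even group for *Gad2*, with 43.0, 43.9, 43.8 and 44.1 CPM over both runs.

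The spread inside groups was of similar size for most of these genes. After the groups were taken out, the SD of log2(CPM + 0.1) was 0.26 for *Calb1*, 0.29 for *Gad1*, 0.33 for *Gad2* and *Tfap2b*, 0.34 for *Slc32a1*, 0.35 for *Lhx1*, 0.38 for *Th*, 0.52 for *Chat*, 0.72 for *Slc6a9* and 0.91 for *Onecut1*. With the run of columns also taken out, it fell to 0.42 for *Slc6a9* and 0.38 for *Chat*, and it was 0.26 for *Calb1* and 0.33 for *Tfap2b* as before.

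After removal of the run, the genes whose log2 CPM was most like that of *Slc32a1* over the 42 libraries were *C1ql2* (Pearson's r = 0.94), *Faim2* and *Nptx2* (both 0.92). Those most like *Lhx1* were *Ttc9*, *Trim32* and *Stau2* (all 0.81). The values share libraries, depth and groups, and the likeness is given as a description.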

How the data were processed

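Retinal RNA libraries, each a pool of 2 lasered retinas, were sequenced with paired ends of 150 bases. The authors deposited raw read counts per gene, without normalization. The labels name mm10 as the build and DESeq2 as a tool, and the aligner, the annotation and the strand setting of the counting are not given in the sources used here. Symbols, positions and exon lengths came from the GENCODE M21 annotation (GRCm38), where 54495 of the 54532 gene IDs were found.

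Groups were taken from the sample titles. The counts of 42 libraries entered a single fit with terms for 12 groups and for the run of columns. Low counts were filtered by filterByExpr, libraries were scaled by TMM, and contrasts were tested by the quasi-likelihood test of edgeR 4.0.16 (R 4.3.3, limma 3.58.1) with Benjamini-Hochberg adjustment over 18173 genes. The standard error is the size of the log2 fold change divided by the square root of F. DESeq2 1.42.0, RLE scaling, no filter, no run, a replicate block, other sets of libraries, an adjusted p under 0.05, an absolute log2 fold change over 1 and leaving out each library were alternatives. Tested on simulated data for SCFA in males at 7 dpl (18173 genes), edgeR called 80% of genes changed by 1 on the log2 scale and 98% of those changed by 2, with 24 false calls. Apart from these changes each simulated gene had 1 mean level, without differences between runs or groups. Genes of low level were not changed and smaller changes were not simulated, so these shares need not hold for the measured libraries.

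The members and gene lists were chosen with earlier results of these data known. The text names all 10 genes, for each related list up to 4 called genes per comparison with the largest fold change, *Slc18a3*, *Ddc*, *Slc6a3* and *Slc18a2*, and the 3 genes most like *Slc32a1* and *Lhx1*. Some receptor genes that this rule would name are not reported here. Markers of other cells are given by count. The named Müller glia genes, *Calb2* in males at 7 dpl and *Slc5a7* in the average over sexes and times were chosen after their values were seen. The sources used here do not say whether fellow eyes entered other pools, so p values measure the spread between pools. A count of 3 or fewer was taken as the floor, which covers counting error only. Figures were drawn with matplotlib 3.10.9.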

Additional observations from a re-analysis of the deposited data

Results flagged for a closer look

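*Slc6a9* had 45.1 CPM (without TMM scaling) in the library of SCFA-treated females at 3 dpl that was left out for its lens transcripts, above the 22.2 to 41.5 CPM of the 3 control libraries of the same sex and day. It was the only one of the 10 genes above those controls there, and values below them were not flagged. *Gad1* (156 CPM against 171 to 243), *Slc32a1*, *Chat*, *Th*, *Calb1* and *Onecut1* were below all of those controls in that library. The test for a library far from its group was applied 50 times, to each gene in the 5 groups of 4 or 5 libraries, and marked none, where chance marks about 1 in 20. Each of these groups holds both runs of columns, whose difference was not taken out and can widen the range. The test also looks for 1 library at a time, so it cannot show that no library stood apart.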

How the results depend on the processing

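Counts of called genes among the 10 moved as follows. With SCFA in males at 7 dpl 3 became 0 without SCFA replicates 1 and 3 (chosen after the data were seen) and 0 with an absolute log2 fold change over 1 as well. With SCFA in males at 14 dpl 0 became 1 (*Slc32a1*) without a filter on low counts and 4 in the study's libraries, and with SCFA in females at 14 dpl 0 became 4 in the study's libraries. For SCFA over all groups 3 became 1 without the run (*Gad2*), 1 without SCFA replicates 1 and 3 of males at 7 dpl (*Chat*), 1 at an adjusted p under 0.05 (*Chat*) and 0 past the fold. Between the sexes in controls 0 became 4 at 7 dpl in the study's libraries, and 1 (*Gad2*) at 14 dpl with DESeq2, without a filter and without the run. Without a filter, 0 also became 1 (*Slc6a9*) between 7 and 14 dpl with SCFA, and the interaction gave 2 (*Slc6a9* and *Tfap2b*) at 3 dpl and 1 (*Slc32a1*) at 14 dpl. Between the runs 5 became 1 past the fold and 3 with the replicate block (*Slc6a9*, *Slc32a1* and *Chat*). The replicate numbers did not pair the libraries (correlations of deviations from -0.196 to 0.259), and the block moved no other count by over 1.5 times. Where no value shows the cause, the cause was not tested.

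Leaving out 1 library at a time gave 0 to 3 genes for SCFA in males at 7 dpl, 1 to 3 for SCFA over all groups (1, *Chat*, without female SCFA 3 dpl replicate 3, male control 14 dpl replicate 3 or male control 7 dpl replicate 3), 0 to 1 for the sexes at 14 dpl (*Gad2*, without male SCFA 7 dpl replicate 2 or male control 3 dpl replicate 1, 2 or 4) and 4 to 7 for the runs. The other 14 comparisons stayed at 0. No gene called in the fit of all libraries changed sign under these alternatives, whereas *Slc6a9* in males at 7 dpl (-0.41) and in females at 14 dpl (0.22) and *Chat* in the latter (0.04), not called there, were called with the opposite sign in the study's libraries (0.75, -1.15 and -0.86). *Slc32a1* over all groups was the least firm, called in edgeR's fit and not with DESeq2 (adjusted p = 0.116) or RLE scaling (0.120). The study lists libraries for 6 of the comparisons alone, and the first run alone gives no difference between runs. Depth limits *Onecut1* most, with 3 reads or fewer in 12 of 42 libraries.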
